A study of Mus musculus with 2 samples.

Results

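Genes of protein folding and stress in the endoplasmic reticulum were followed through the adult mouse mammary epithelium. The set was chosen by name, with earlier results of these data known. It held 10 of the 27998 genes in the table: Xbp1, Calr, Canx, Pdia3, Pdia4, Pdia6, Creld2, Sdf2l1, Manf and Herpud1. Their levels were read in the basal, luminal progenitor (LP) and mature luminal (ML) cells of a total epithelium library, and then in a library of sorted basal cells. Both libraries were made on the 10X Chromium platform, which tags every captured RNA molecule so that each is counted once, with 1 library per condition and pooled cells of adult female FVB/NJ mice, an inbred strain. No treatment was given, and the design names 8 mice over both libraries. Total epithelial cells were taken by the Lin- CD24+ gate and basal cells by the Lin- CD29hi CD24+ gate, where Lin- removes cells that bear the blood or endothelial surface proteins CD45, TER119 or CD31. With 1 library per condition no difference had a replicate check, and the cells of 1 pool are not replicates, so that no p-value is given.

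Cells of the total epithelium library were put in classes by marker counts. A cell was basal with 10 or more counts summed over Krt5, Krt14 and Acta2, and ML with 10 or more over Prlr, Stc2 and Gpx3, whereas any other cell with 3 or more over Krt8, Krt18 and Krt19 was LP. The rule gave 1280 basal, 766 LP and 1133 ML cells of 3302, with 26 cells that met both the basal and the ML rule and 97 that met none. The library held 9227651 counts, with 802 to 12967 per cell, and the median per cell was 3403 counts in ML, 2483.5 in LP and 1820 in the basal class. Markers outside the rule followed the class names. Basal markers (Krt17, Myl9, Cxcl14, Sparc, Mylk, Trp63 and Oxtr) summed to 16413 CPM (counts per 1000000 counts of the class) in the basal class, against 129 in LP and 85.2 in ML. LP markers such as Csn3, Elf5 and Kit summed to 13252 CPM in LP, 434 in basal and 1293 in ML, and ML markers such as Esr1, Pgr and Areg to 7610 CPM in ML, 764 in LP and 75.4 in basal. Of the LP cells, 94 held 4 or more counts of the ML rule genes. The fibroblast list summed to 1419 CPM in ML, 358 in basal and 83.4 in LP, and without Dcn to 138, 12.8 and 6.95. The 5 immune markers (Ptprc, Cd74, Lyz2, Cd3e and Cd79a) summed to 45.6 CPM in basal, 4.17 in LP and 1.69 in ML, most of it Cd74 in each, and to 450.1 CPM, all Lyz2, in the cells that met no rule. Ptprc and Cd3e, which mark leukocytes and T cells, were at 0 throughout.

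Proteins bound for secretion or the cell surface fold in the endoplasmic reticulum, where chaperones hold the chain, lectins read its sugars and disulfide isomerases set its cysteine bonds. When unfolded protein builds up, the sensors Ire1 (Ern1), Perk (Eif2ak3) and Atf6 start the unfolded protein response, in which Ire1 splices the Xbp1 messenger RNA into the form that encodes an active transcription factor. Secretory epithelium, with the mammary gland among the textbook cases, relies on this machinery to make large amounts of exported protein. Counts at the 3' end of a messenger cannot tell spliced from unspliced Xbp1, so that all values below are of total messenger.

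Atf6 and Xbp1 are known to act through the endoplasmic reticulum stress element (ERSE), and through the shorter ERSE-II. Both were looked for, on both strands, in RefSeq promoter windows of GRCm38.p6 that run from 250 bases before a gene's start to 50 after it, and 9 of the 10 genes had a window. The full ERSE (CCAAT, any 9 bases, then CCACG) lay in the windows of Calr, Canx, Creld2 and Pdia6, against 0.119% of all 32851 windows. ERSE-II (ATTGG, any base, then CCACG) lay in that of Herpud1, against 0.0365% of all windows. The core TGACGTGG of the unfolded protein response element was in none of the 9, and in 0.676% of all windows. The sites are shown because they are the sequence shared by part of the set that the choice by name did not use, and the chaperone Hspa5 is given as a reference gene. They are written in the direction of the motif with the fixed bases in capitals.
Creld2, 126 to 108 bases before the start, on the strand opposite to the gene: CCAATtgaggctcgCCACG
Pdia6, 98 to 80 bases before the start: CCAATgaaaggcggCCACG
Calr, 162 to 144 bases before the start, on the strand opposite to the gene: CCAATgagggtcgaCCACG
Canx, 145 to 127 bases before the start: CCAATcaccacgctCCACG
Herpud1, 52 to 42 bases before the start: ATTGGgCCACG
Hspa5, 65 to 47 bases before the start: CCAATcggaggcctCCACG
A match is a description of the letters and was not tested as a bound site.

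The genes with a match did not share a pattern over the classes, as the values below give: Pdia6 was highest in ML, Herpud1 in basal, and Calr was level. Their surroundings are shown for 3 genes with a site and for Sdf2l1, the gene with the widest range of levels, whose window held none of these motifs. Each stretch is 150 bases on the gene's strand that end before both the RefSeq and the GENCODE start. Counted from the RefSeq start used for the sites, that of Pdia6 runs from 194 to 45 bases before it and the other 3 from 150 to 1, with the fixed bases of a match in capitals.
Pdia6, chr12:17266395-17266544, plus strand: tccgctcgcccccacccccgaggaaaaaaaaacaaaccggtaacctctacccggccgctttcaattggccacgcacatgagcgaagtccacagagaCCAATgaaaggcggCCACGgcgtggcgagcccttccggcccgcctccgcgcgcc
Creld2, chr15:88819496-88819645, plus strand: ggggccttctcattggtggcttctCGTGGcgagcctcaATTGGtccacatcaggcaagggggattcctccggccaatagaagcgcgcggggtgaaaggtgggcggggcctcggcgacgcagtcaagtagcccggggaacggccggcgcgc
Herpud1, chr8:94386279-94386428, plus strand: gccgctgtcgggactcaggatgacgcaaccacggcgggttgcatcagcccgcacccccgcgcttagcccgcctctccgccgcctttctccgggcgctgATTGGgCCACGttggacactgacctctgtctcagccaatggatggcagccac
Sdf2l1, chr16:17132384-17132533, minus strand: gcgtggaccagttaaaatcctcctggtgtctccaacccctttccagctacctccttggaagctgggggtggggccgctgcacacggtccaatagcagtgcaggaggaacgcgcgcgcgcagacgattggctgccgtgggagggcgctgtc

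As a group, these genes took the largest share of messenger in ML cells. Their summed level was 4304 CPM (4241 to 4368) in ML, 3016 (2943 to 3090.1) in LP and 2755 (2693 to 2819) in basal cells, where each bracket is an exact 95% Poisson interval that covers counting error alone. The ML sum was 1.43 times that of LP (1.39 to 1.47) and 1.56 times that of the basal class (1.52 to 1.61), and LP stood 1.09 times above basal (1.06 to 1.13). These ratios were of shares of all counts, and over the 7155 genes with 100 or more counts the median ratio was itself 1.22 for ML against LP, 1.08 for ML against basal and 0.899 for LP against basal. With edgeR TMM scaling, which centres the bulk of genes, those medians moved on the log2 scale from 0.29 to 0.04, from 0.11 to 0.0036 and from -0.15 to -0.0082, and the log2 ratio of the summed genes moved from 0.51 to 0.26 for ML against LP, from 0.64 to 0.54 for ML against basal and from 0.13 to 0.28 for LP against basal. Without the cells that held 3 or more counts of stromal markers the log2 ratios were 0.52, 0.67 and 0.15, as large as with them. The sum also rests on the choice of genes. Hspa5, which is outside the set, had the opposite order, at 2347 CPM in basal, 1558 in LP and 1169 in ML. Of 71 genes of a wider list given below, 29 (40.8%) were 1.5 times higher and 13 (18.3%) lower in ML than in basal. Over all genes these shares were 30.3% and 24.7%. The median ratio of ML to basal was 1.34 in that list, beside 1.38 in the set. The sum hid distinct patterns among its 10 genes, all of which passed the minimum of 100 counts.

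**Figure D1:**
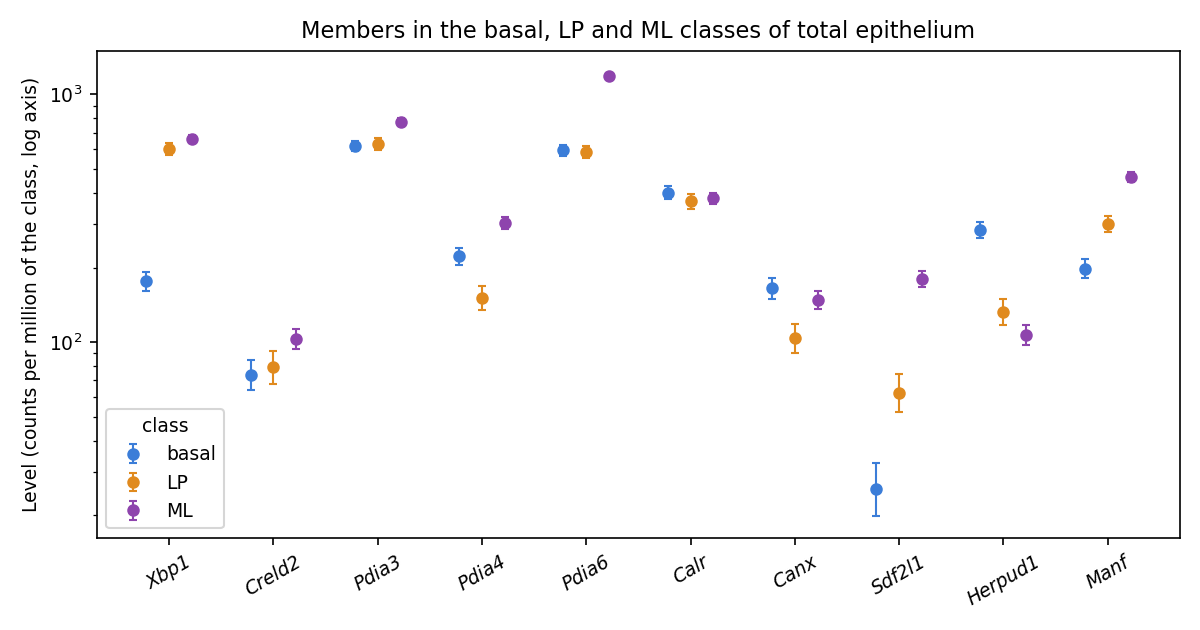
CPM of each gene (log axis) in the 3 classes of the total epithelium library, with exact 95% Poisson intervals as bars. Sdf2l1 climbs from 25.6 to 62.5 to 179.5, Herpud1 runs the other way from 283 to 107, and the bars of the 3 Calr points overlap.

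Xbp1, the transcription factor of the set, separated luminal from basal cells. Its level was 176 CPM (160.1 to 192) in basal, 602 (570.0 to 636) in LP and 661 (637 to 687) in ML. It was thus 3.76 times higher in ML than in basal cells (3.41 to 4.16) and 3.43 times higher in LP than in basal cells (3.08 to 3.82). The ML and LP levels stood close at a ratio of 1.10 (1.03 to 1.17), and that order turned under TMM scaling, at a log2 ratio of -0.11 against 0.13. After every cell was thinned to 800 counts, Xbp1 was found in 34.9% of LP and 35.0% of ML cells but in 12.1% of basal cells. The gene lies on chromosome 11 at 5520659 to 5525893 (plus strand, GRCm38), as do all positions here in the GENCODE M21 annotation of that build.

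The lectin chaperones Calr and Canx, which hold glycoproteins through their sugars until they fold, were not highest in ML cells. Calr, the soluble one, was at 401 CPM (377 to 426) in basal, 370.2 (345 to 397) in LP and 380.4 (362 to 399.6) in ML. No pair of classes was set apart by its intervals, LP moved from below to above basal and ML from above to below LP under TMM scaling (log2 ratios 0.03 against -0.11 and -0.21 against 0.04), and the ratio of ML to basal was bounded between 0.877 and 1.03. Canx, the membrane-bound one, was at 165 CPM (149.7 to 181) in basal, 104 (90.6 to 118) in LP and 148 (137 to 160.3) in ML. It was lowest in LP, 1.59 times below basal (1.35 to 1.87), while the intervals of basal and ML overlapped, and under TMM scaling the LP to basal ratio was short of 1.5 times, at a log2 of -0.52 against -0.67. Calr spans 84841850 to 84846934 on chromosome 8 and Canx 50293961 to 50325673 on chromosome 11, both on the minus strand.

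Among the disulfide isomerases, Pdia6 and Pdia4 were set apart by class and Pdia3 and Creld2 much less. Pdia6 was at 594 CPM (565 to 624) in basal, 583 (551 to 616) in LP and 1187 (1154 to 1221) in ML, which was 2.04 times LP (1.91 to 2.17) and 2.0 times basal (1.89 to 2.12). LP and basal cells did not differ beyond counting error in Pdia6, at a ratio of 0.982 (0.911 to 1.06), whose side of 1 turned under TMM scaling (log2 ratio 0.12 against -0.03). Pdia4 was at 222 CPM (204 to 240.4) in basal, 151 (135 to 168) in LP and 301 (285 to 319) in ML. It was thus lowest in LP, with ML 2.0 times higher (1.77 to 2.27) and basal 1.47 times higher (1.28 to 1.69). At 800 counts per cell, Pdia6 was seen in 56.0% of ML cells against 32.6% of LP and 33.3% of basal cells, and Pdia4 in 20.6% against 9.79% and 14.3%.

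Pdia3, the isomerase that works with Calr and Canx on glycoproteins, was at 618 CPM (589 to 649) in basal, 632 (599 to 666) in LP and 773 (746 to 800.3) in ML. The ML level was higher than both by under 1.5 times, at 1.22 (1.15 to 1.30) over LP and 1.25 (1.18 to 1.33) over basal. The first of these equals the median of 1.22 over all genes. With TMM scaling the log2 ratio was 0.04 against 0.29 over LP and 0.22 against 0.32 over basal. Creld2, a stress-induced protein of the lumen with isomerase activity, was at 73.9 CPM (63.9 to 85.0) in basal, 79.2 (67.8 to 92.0) in LP and 103 (93.5 to 113) in ML. It rested on 196, 171 and 426 counts, and the LP and basal intervals overlapped for both genes. The log2 ratio of Creld2 for ML against LP was 0.13 with TMM scaling, against 0.38. Pdia6 (chromosome 12, 17266545 to 17284770), Pdia3 (chromosome 2, 121413775 to 121438687) and Creld2 (chromosome 15, 88819646 to 88826683) lie on the plus strand and Pdia4 (chromosome 6, 47796141 to 47813430) on the minus strand.

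Sdf2l1 and Manf, both small proteins of the lumen that are induced by folding stress, followed one order, with ML above LP and LP above basal. Sdf2l1 binds chaperone complexes of the Hspa5 cycle, and Manf is retained with Hspa5 or secreted. Sdf2l1 was at 25.6 CPM (19.9 to 32.5) in basal, 62.5 (52.4 to 74.0) in LP and 179.5 (167 to 193) in ML. ML cells thus had 7.0 times the basal level (5.46 to 9.11) and 2.87 times the LP level (2.39 to 3.47), the widest range in the set, although the basal value rested on 68 counts. Manf was at 198 CPM (181 to 216) in basal, 300.2 (278 to 324) in LP and 464 (443 to 485) in ML. Its ratio was 2.34 (2.13 to 2.58) for ML against basal, 1.54 (1.41 to 1.69) for ML against LP and 1.52 (1.35 to 1.70) for LP against basal, and the second of these lay under 1.5 times with TMM scaling, at a log2 of 0.38 against 0.63. The position of Sdf2l1 is chromosome 16 at 17130138 to 17132383 and that of Manf chromosome 9 at 106838312 to 106891979, both on the minus strand. The annotated span of Manf overlaps Rbm15b on the same strand, so that its counts are uncertain where reads fall in the shared part.

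Herpud1, a membrane protein of the complex that draws misfolded chains out for degradation, was highest in basal and lowest in ML cells, an order that no other gene of the set had in full. It was at 283 CPM (263 to 304) in basal, 132 (118 to 149) in LP and 107 (97.2 to 117) in ML. The basal level was 2.65 times that of ML (2.35 to 2.99) and 2.14 times that of LP (1.86 to 2.46), and LP stood 1.24 times above ML (1.06 to 1.44). At 800 counts per cell it was found in 19.7% of basal cells, 9.40% of LP cells and 7.94% of ML cells. The gene spans 94386438 to 94395377 on the plus strand of chromosome 8.

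These contrasts were read against all genes by a fixed size, a ratio of 1.5 or more in either direction. For ML against LP, 4 of 10 genes were higher in ML (Pdia4, Pdia6, Sdf2l1 and Manf) where 32.0% of 7155 genes were, and 0 were higher in LP where 15% were. The share higher in ML was thus near that of all genes. In ML against basal, 4 of 10 were higher in ML (Xbp1, Pdia6, Sdf2l1 and Manf), beside 30.3% of all genes, and Herpud1 alone was higher in basal, beside 24.7%. For LP against basal, 3 were higher in LP (Xbp1, Sdf2l1 and Manf), beside 19.8% of all genes, and Canx and Herpud1 were higher in basal, beside 29.6%. The median ratio of the 10 genes was 1.36, 1.38 and 1.0 in these comparisons, beside 1.22, 1.08 and 0.899 over all genes. TMM scaling moves every gene of a comparison by the same factor. With it, 20.4% of all genes were higher in ML than in LP and 21% lower, and of the 10 genes 3 were higher and 0 lower. In LP against basal the split of the set became 3 higher and 1 lower, beside 23.6% and 24.1% of all genes.

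**Figure D2:**
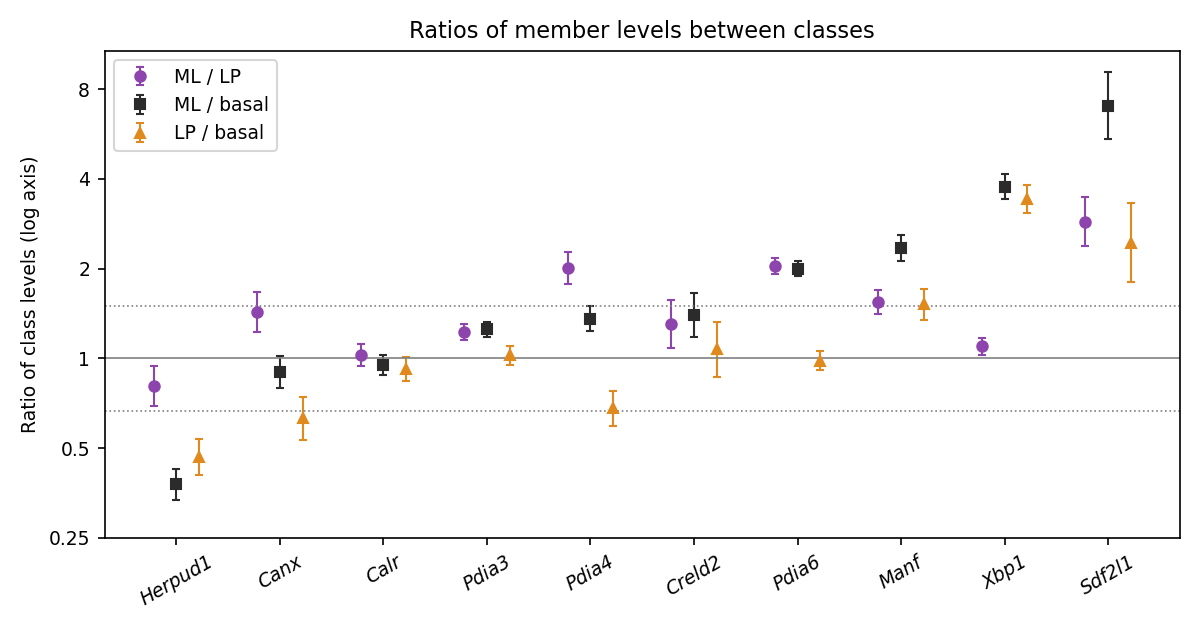
Ratio of the level of each gene between classes of the total epithelium library (log axis), with exact 95% intervals and dotted lines at 1.5 times either way. Sdf2l1 stands highest for ML against basal at 7.0, Xbp1 shows a gap between its luminal to basal ratios (3.76 and 3.43) and its ML to LP ratio (1.10), and Herpud1 lies below 1 in all 3 comparisons.

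Single cells held few counts of the set. After thinning to 800 counts, a depth that every cell reached, basal and LP cells held a median of 2 counts of the 10 genes together, with 3 in ML cells, and no count at all was seen in 14.9% of basal cells, 15.9% of LP cells and 7.59% of ML cells. Spread of the summed count among cells was widest in ML, where its mean was also highest (3.42, beside 2.35 in LP and 2.13 in basal cells). The variance of the summed count was 2.27 times its mean in ML cells, 1.74 times in LP and 1.24 times in basal cells, with a highest cell at 25, 13 and 9 counts. Manf had the widest spread of the set in ML cells, at a ratio of variance to mean of 1.69, beside a median of 1.06 and a 90th percentile of 1.25 over the 4717 genes with a mean of 0.02 or more. Pdia6 led in LP at 1.42 and Pdia4 in basal cells at 1.34. No cell type here is known to lack these genes, so that free RNA was looked at in lineage markers: at the same depth Krt17 was in 76.9% of basal cells but in 2.87% of LP and 1.77% of ML cells, and Areg in 58.0% of ML, 8.49% of LP and 1.56% of basal cells. Csn3 was in 72.1% of LP, 8.91% of ML and 3.20% of basal cells. Sdf2l1 was in 1.72% of basal cells (1.08% to 2.59%) at that depth. Its mean count per cell was 0.018 in basal and 0.142 in ML cells, while that of the ML marker Areg was 0.0172 in basal and 2.34 in ML cells. The mean of Krt17 was 0.0203 in ML and 4.96 in basal cells. The part of free RNA in the low basal value of Sdf2l1 was not tested. Without thinning, Sdf2l1 was seen in 39.6% of ML, 13.8% of LP and 4.45% of basal cells and Xbp1 in 68.6%, 61.9% and 24.7%.

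Unsupervised clusters showed that the set was uneven within ML cells. The cells were clustered without these 10 genes and without the other reticulum genes described below, which gave 18 clusters, 13 of them with 30 or more cells. Summed levels ran from 2469 to 3027 CPM in the 3 clusters of mostly basal cells, from 2497 to 3156 in the 3 of mostly LP cells, and from 3368 to 5923 in the 6 of mostly ML cells. The lowest of these 6 was cluster 9, of 142 cells with a median of 5287 counts, whose LP markers (6492 CPM) summed higher than its ML markers (3606 CPM), and without it the range began at 3630 CPM. The highest was cluster 5, with 295 cells of which 97.6% were ML, led by Ido1, Aoc1, Tmem86a, Tph1 and Tgm2. Its cells summed to 5923 CPM (5781 to 6069), 1.61 times the other 5 clusters of mostly ML cells together (1.57 to 1.66) and 1.57 times (1.52 to 1.62) without cluster 9. Those other 5 clusters together were at 3671 CPM (3605 to 3737), or 3763 without cluster 9, beside 3016 in the LP class. Cluster 5 was picked for its summed level, so that the figures on it are a description and no test.

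Within cluster 5 the transcription factor stood out most. Xbp1 was at 1093 CPM against 504 in the other ML clusters, a ratio of 2.17 (2.01 to 2.34). Manf was 2.02 times higher (1.85 to 2.22), at 727 against 359 CPM, Pdia6 1.61 times (1.52 to 1.71), Pdia4 1.54 times (1.37 to 1.73) and Canx 1.52 times (1.28 to 1.80). These 5 of 10 genes passed 1.5 times, where 4.17% of 4896 genes did. Without cluster 9 in the comparison, 3 of 10 did (Xbp1 at 2.24, Manf at 2.01 and Pdia6 at 1.52), beside 3.98% of 4372 genes, and Canx and Pdia4 were at 1.49 and 1.41. Calr, Creld2, Sdf2l1 and Pdia3 were higher by 1.46, 1.42, 1.42 and 1.30 times, while Herpud1 was level at 0.941 (0.754 to 1.17), or 1.05 (0.833 to 1.32) without cluster 9. The median ratio of the set was 1.49, beside 0.939 for all genes. The ML markers outside the rule also summed highest in cluster 5, at 10940.0 CPM beside 3606 to 8539 in the other ML clusters, and its median depth of 3697 counts lay within their range of 2297 to 5287. The fibroblast list was at 1131 CPM there, inside the 456 to 2945 of the others, and the part of these markers in the result was not tested. Under other settings of the clustering the highest cluster summed to 5932 to 6933 CPM and lay almost wholly inside cluster 5, with 265 of 266, 129 of 129 and 291 of 291 cells shared. It held 89.8% of the cells of cluster 5 at a resolution of 0.5 and 98.6% with another seed. At a resolution of 2 it held only 43.7% of them, at 6933 CPM, so that cluster 5 was split there.

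**Figure D3:**
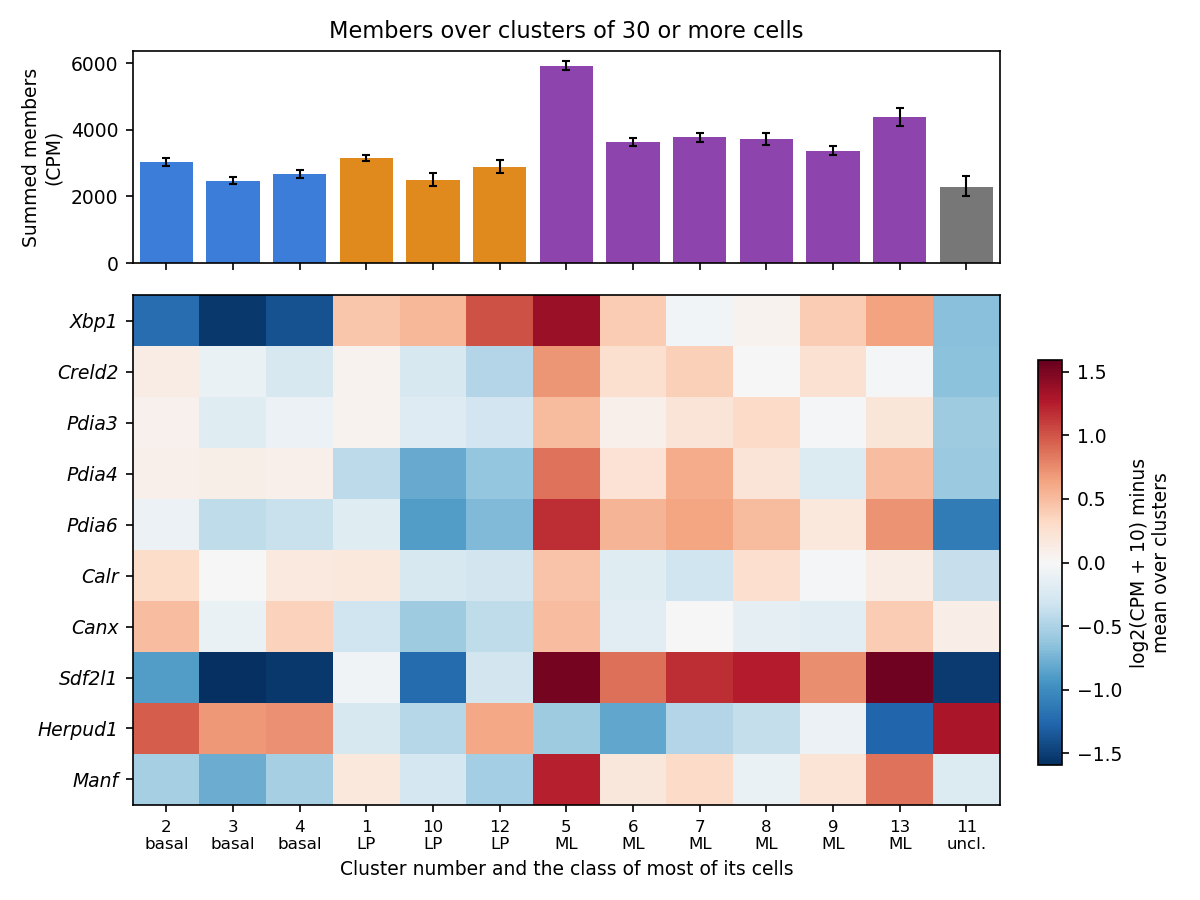
Top, summed level of the 10 genes (CPM, exact 95% Poisson intervals) in each cluster of 30 or more cells, coloured by the class of most of its cells. Bottom, log2(CPM + 10) of each gene minus its mean over the 13 clusters. Cluster 5 has the tallest bar at 5923 and is dark for Xbp1, Pdia6, Sdf2l1 and Manf. Herpud1 is warm in the basal clusters, in cluster 11 and in LP cluster 12.

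The other clusters showed that the genes can part. Among LP clusters, cluster 12, led by Apod and the milk genes Csn1s2a, Csn2 and Csn1s1, had the highest Xbp1 at 853 CPM beside 569 and 606 in clusters 1 and 10. It also had the highest Herpud1 at 243 beside 128 and 110.4, while Manf at 203 CPM and Creld2 at 53.5 were the lowest of the 3 LP clusters, beside 339.5 and 81.3 in cluster 1 and 246 and 64.1 in cluster 10. Pdia6 was at 435 CPM there, between the 625 of cluster 1 and the 381 of cluster 10. Clusters 12 and 10 held 280338 and 280752 counts over all genes, so that low levels such as those of Creld2 rested on few counts. Cluster 11, of 66 cells led by Sparcl1, Fabp4 and Ndufa4l2, held 10048 CPM of basal, 1291 CPM of pericyte and 498 CPM of endothelial markers. Among the 13 clusters of 30 or more cells it had the highest Herpud1, at 396 CPM beside 311 in cluster 2, and the lowest Pdia6, at 323 beside 381 in cluster 10. Both values come from only 108481 counts over all genes and have no interval, so that these ranks are uncertain. No doublet caller was run.

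Over the 13 clusters, Pdia6 (r = 0.939), Sdf2l1 (0.901), Pdia3 (0.895) and Manf (0.883) followed the summed level, Xbp1 (0.621), Calr (0.524) and Canx (0.418) less so, and Herpud1 ran against it (-0.706). Pearson's r was taken on log2(CPM + 10), each of these genes is part of the sum, and clusters share 1 library. Among 4125 other genes with 300 or more counts, those nearest to the sum were Vimp (0.967), Rpn1 (0.938), Tmem176a (0.923), Tmed9 (0.919), H13 (0.917), Stxbp6 (0.912), Tmed10 (0.908), Tspan31 (0.906), Xpnpep1 (0.904) and Tmed2 (0.904). Vimp ranged from 127 to 449.8 CPM over the clusters and Rpn1, a subunit of the oligosaccharyltransferase, from 83.0 to 256.

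A wider list of 87 genes of the same pathway, in 8 groups by role, placed the set in its surroundings. Like the set, the list was chosen with earlier results of these data known. Of the 87 genes, 71 passed the minimum of 100 counts. ML against LP had 27 higher and 6 lower by 1.5 times, ML against basal 29 and 13, and LP against basal 12 and 14, beside the shares of all genes given above. Median ratios were 1.36, 1.34 and 0.991. With TMM scaling the numbers became 15 and 8, 24 and 14, and 17 and 10, and the shares of all genes for ML against basal 26.7% higher and 27.8% lower. The groups differed in direction, and for ML against basal the medians of 6 groups lay above 1 with either scaling. Those of the sensors and transcription factors (0.794, and 0.739 with TMM) and of the Perk-arm targets (0.619 and 0.576) lay below 1. Under TMM the numbers higher and lower in ML than in basal were 5 and 0 of 9 glycan, 4 and 0 of 14 translocon, 7 and 1 of 9 degradation and 1 and 4 of 5 Perk-arm genes.

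Hspa5, the main chaperone of the lumen, went against most of the set. It was at 2347 CPM in basal, 1558 in LP and 1169 in ML, 2.01 times higher in basal than in ML cells (1.93 to 2.08). Its helper Dnajb9 had the same order, at 425, 189.9 and 142 CPM, and Serpinh1, the collagen chaperone, was at 1355, 197 and 111 CPM, 12.3 times higher in basal than in ML (11.1 to 13.5). Hsp90b1 was at 475 CPM in basal, 308 in LP and 419.8 in ML, lowest in LP as Canx and Pdia4 were. Other helpers of Hspa5 went toward ML: Dnajc3 was at 159.5, 184 and 315 CPM in basal, LP and ML, and the exchange factor Sil1 at 20.7, 37.5 and 62.9. Of the 12 chaperones that passed the minimum, 3 were higher and 3 lower in ML than in basal, near the 30.3% and 24.7% of all genes.

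Among disulfide enzymes outside the set, 9 of 11 passed the minimum. In ML against basal, 3 of them (33.3%) were higher and 1 (11.1%) lower, beside 30.3% and 24.7% of all genes. Qsox1, a secreted sulfhydryl oxidase, was at 27.2 CPM in basal, 103 in LP and 142 in ML, 5.21 times higher in ML than in basal (4.08 to 6.76). Txndc12 was likewise luminal, at 24.9, 123 and 106 CPM. Ero1l, the oxidase that recharges the isomerases, was highest in LP at 59.3 CPM, beside 37.3 in basal and 23.7 in ML.

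Genes of the glycan cycle and the translocon were in part higher in ML and in no case 1.5 times lower. Of the 9 glycan genes with enough counts, 6 (66.7%) were higher and 0 lower in ML than in basal, beside 30.3% and 24.7% of all genes. Dad1, a subunit of the oligosaccharyltransferase, led them at 443 CPM in ML beside 216 in basal and 198 in LP. Of 14 translocon and signal peptidase genes, 6 (42.9%) were higher and 0 lower. With TMM scaling 4 of them (28.6%) were higher, near the 26.7% of all genes. Spcs2, of the signal peptidase, was at 1126 CPM in ML, 351 in basal and 481 in LP. Degradation genes had the highest median ratio of the 8 groups for ML against basal, at 2.35, with 8 of 9 higher and 0 lower, and 6 of 9 were higher in ML than in LP. Over all genes, 30.3% were higher and 24.7% lower in ML than in basal, and 32.0% were higher in ML than in LP. Derl2, of the retrotranslocation channel, was at 176 CPM in ML, 56.6 in basal and 80.6 in LP, and Sel1l, the adaptor of the Hrd1 ligase, at 33.9, 10.9 and 18.1. Herpud1, which works in the same complex, was lowest in ML cells.

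Genes placed here on the Perk side that passed the minimum had the opposite order in most cases. Their messenger levels do not measure the activity of Perk, which was not tested. Atf4, its transcription factor, was at 473 CPM in basal, 425 in LP and 205 in ML, 2.30 times higher in basal than in ML (2.11 to 2.52), and Ddit3, induced by Atf4, at 52.8, 40.8 and 21.3. Of the 5 Perk-arm targets with enough counts, 4 were lower and 1 higher in ML than in basal, beside 24.7% and 30.3% of all genes. Ppp1r15a, which returns translation to normal, was at 1028 CPM in basal, 472 in LP and 265 in ML, and Sesn2 at 33.6, 25.9 and 11.6. Atf3, an early stress gene, was the exception among these 5, at 1035, 1624 and 1926 CPM. Trib3 and Chac1, under the minimum, had 34 and 5 counts in ML and 15 and 1 in basal cells. Their ratios of ML to basal were 1.45 (0.771 to 2.87) and 3.21 (0.359 to 152). The sensors themselves were sparse: Ern1 had 55 counts in ML, 4 in LP and 2 in basal cells, and Atf6 39, 23 and 30, under the minimum of 100. Perk itself (Eif2ak3) had 26, 12 and 4 counts, a ratio of ML to basal of 4.17 (1.45 to 16.4), against the order of Atf4. Atf6b, the relative of Atf6, was at 76.9 CPM in basal, 32.0 in LP and 96.3 in ML.

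Retrieval and export genes showed no common direction in ML against basal, where their median ratio was 1.45. Beside 30.3% and 24.7% of all genes, 1 of 7 was higher (Sec23b, a coat protein of export vesicles, at 91.2 beside 40.7 CPM) and 2 were lower. These were Kdelr3, a receptor that returns resident proteins, at 12.1 beside 33.6 CPM, and Sec24d at 11.9 beside 36.2.

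**Figure D4:**
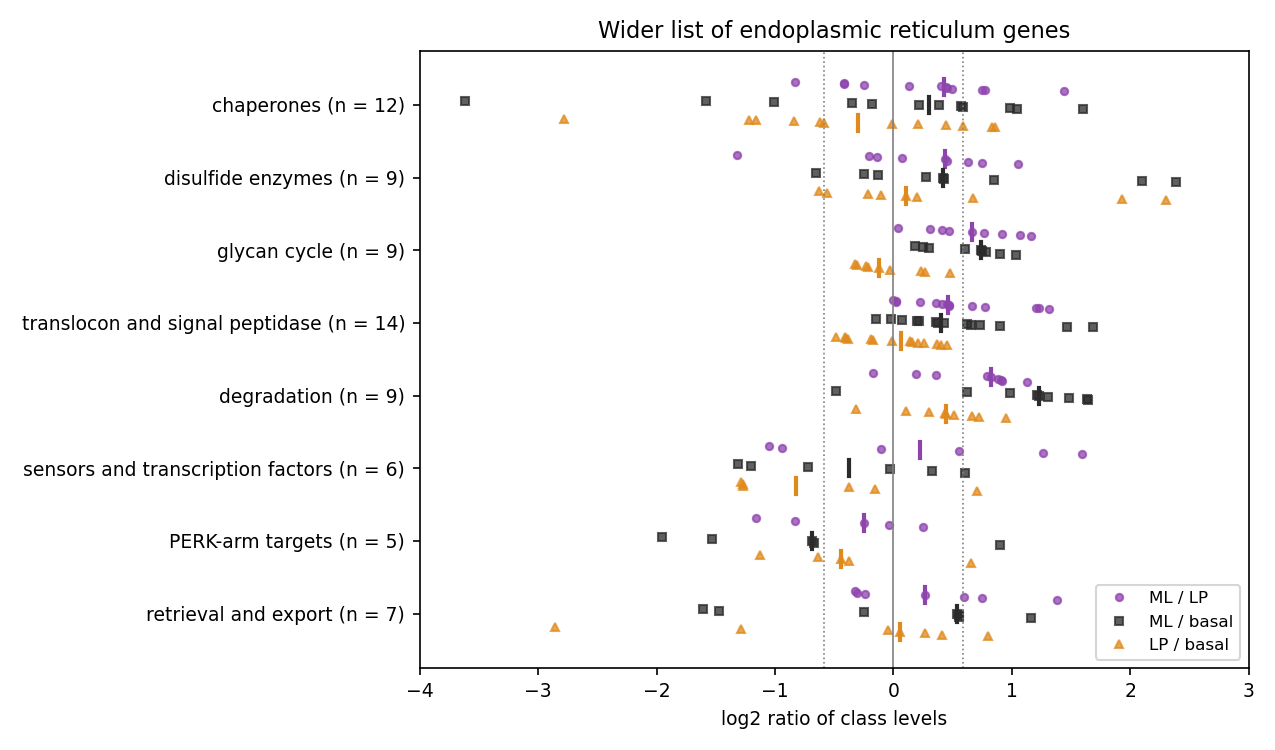
log2 ratio of class levels for the genes of each pathway group that passed the minimum of 100 counts, where points are genes, short bars group medians and dotted lines 1.5 times either way. Degradation genes lie to the right for ML against basal (median ratio 2.35), Perk-arm targets to the left (median ratio 0.619), and the far left chaperone is Serpinh1.

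The sorted basal library served as a second view of basal cells, although shallower. It held 4771 cells and 2488704 counts, with 137 to 1946 per cell and a median of 487, and shared 28 barcodes with the total epithelium library. Ribosomal protein genes took 4.45% of its counts beside 9.90%, and 68.8% of 6033 genes differed by 1.5 times or more between it and the basal class, so that gate, depth and library cannot be told apart in any gene. Of the set, 5 of 10 genes passed 1.5 times, which is below the share of all genes.

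Levels of 5 genes stayed near those of the basal class. Xbp1 was at 169.6 CPM (154 to 187) beside 176, Pdia3 at 665 (633 to 697) beside 618, Calr at 372 (349 to 397) beside 401 and Herpud1 at 303 (282 to 325) beside 283, and Pdia6 was lower at 444 (418 to 471) beside 594. Pdia4 and Canx were higher in the sorted library, at 450.4 beside 222 and 345 beside 165 CPM, ratios of 2.03 (1.84 to 2.25) and 2.09 (1.86 to 2.36). Manf, Creld2 and Sdf2l1 were lower there, at 48.6 beside 198, 26.9 beside 73.9 and 10.0 beside 25.6 CPM. The basal class was higher by 4.07 times (3.34 to 5.0), 2.75 times (2.07 to 3.68) and 2.55 times (1.59 to 4.21), and Sdf2l1 rested on 25 counts. The order against the ML class of the other library was that of the basal class for 8 genes, Xbp1, Sdf2l1 and Herpud1 among them. It turned for Pdia4, at 450.4 beside 301 CPM in ML, and such pairs cross libraries. For Calr only the point values turned, at 372 beside 380.4. Its intervals in the basal class and in the sorted library both overlapped that of ML. Among the sorted cells, 1757 met the basal rule at this depth, and their levels of Xbp1, Herpud1 and Manf were 150.2, 312 and 61.8 CPM. Sdf2l1 was at 5.01 CPM in them, on 6 counts, beside 10.0 in all sorted cells.

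**Figure D5:**
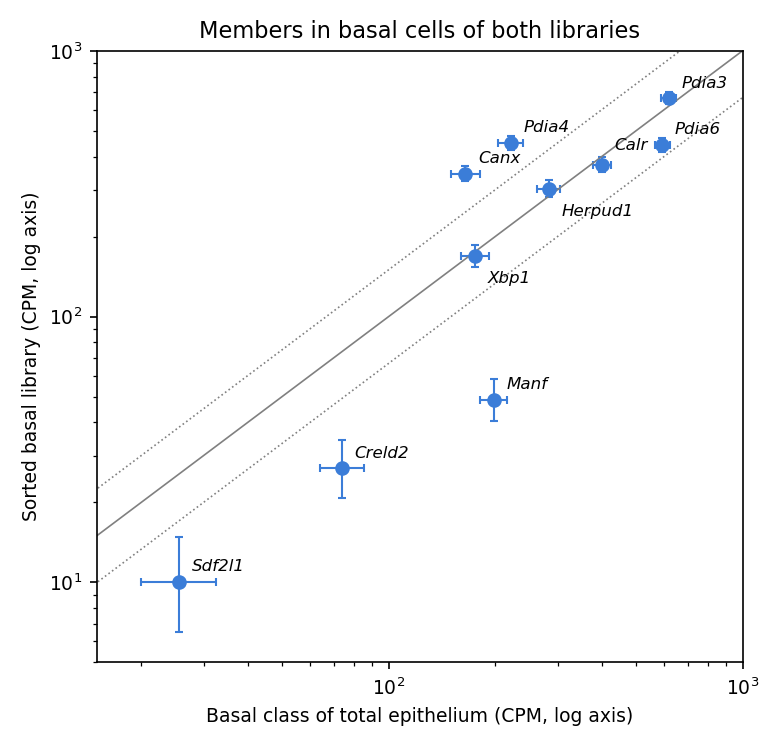
Level of each gene in the sorted basal library against the basal class of total epithelium, both in CPM on log axes, with exact 95% Poisson intervals, a line of equal levels and dotted lines at 1.5 times either way. Pdia4 and Canx lie above the band, Manf, Creld2 and Sdf2l1 below it, and the other 5 genes inside it.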

How the data were processed

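Counts of unique molecules per gene and cell were deposited by the authors as whole numbers without normalization, for 1 Chromium 3' library of total epithelium and 1 of sorted basal cells. The submitters' processing notes name Cell Ranger 1.2.1 and mm10, and the collapse of repeated reads and the choice of cell barcodes lie upstream of these counts. No cell was filtered and no doublet caller was run, and cells that met both the basal and the ML rule were left out of both classes. Counts were summed over the cells of a class and divided by all counts of the class, per 1000000. Levels had exact Poisson, shares exact Clopper-Pearson and ratios exact conditional binomial 95% intervals. Molecules within 1 library carry neither animal nor library spread, so that intervals cover counting error only.

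The members and the pathway and marker lists were chosen with earlier results of these data known. Outside the 10 members, genes named from the pathway lists were at most 2 with the largest ratio each way in each list and comparison, plus Hspa5, Hsp90b1, Atf4, Ddit3, Ern1 and Atf6, and the 10 genes most like the summed members over clusters. Trib3, Chac1 and Eif2ak3, under the minimum of 100 counts, were named outside this rule. A name absent from the gene table, Hm13, was matched through RefSeq synonyms to H13. Clusters used 2000 variable genes, 30 components, 15 neighbours and Leiden clustering (leidenalg 0.10.2, igraph 0.11.9) at a resolution of 1. Alternatives covered scaling (edgeR 4.0.16 TMM and DESeq2 1.42.0 size factors on the class sums, in R 4.3.3, with no test), thinning, filters, class thresholds and marker purity. Python 3.11.15, numpy 2.4.6, scipy 1.17.1 and pandas 2.3.3 were used, and the ratio code was tested on simulated data. Positions came from GENCODE M21 and promoters from RefSeq, both on GRCm38, the assembly also called mm10.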

Additional observations from a re-analysis of the deposited data

How the results depend on the processing

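The 1.5-fold calls of single members were mostly stable and the size of the summed difference was not. Over 12 alternatives that recompute every ratio, 9 of 168 called values fell under 1.5 times (Manf in ML against LP 4 times, Canx in LP against basal 4 times, Manf in LP against basal once) and none changed sign, 6 further ratios reached 1.5 times (Pdia4 in LP against basal under 3 settings, Creld2 in ML against basal under 2 and Canx in ML against LP under 1), and 16 sign changes fell on uncalled ratios. The summed log2 ratio, 0.51 for ML against LP, became 0.26 with TMM, 0.25 with DESeq2 size factors, 0.57 without ribosomal, mitochondrial and rule genes in the totals, and 0.56 with cells weighted equally. For ML against basal, 0.64 became 0.54 with TMM and with DESeq2, 0.70 without those genes, with equal weights and with thresholds of 20, 20 and 6, and 0.68 after thinning to 800 counts. For LP against basal, 0.13 became 0.28 with TMM and 0.29 with DESeq2. The number of members higher in basal than in LP was 2 and became 1 with TMM, with DESeq2, with equal weights, with thresholds of 20, 20 and 6, and at a fold of 2. For scaling, the move follows from the construction, since totals of the classes are rescaled, and for the other settings the cause was not tested. Leaving out cells with 3 or more stromal marker counts (which kept 883 of 1133 ML cells) gave 0.52, 0.67 and 0.15 for these sums, and 0.52, 0.64 and 0.12 with Dcn not counted, a setting added after seeing the data, as were leaving out ML cells with few keratin counts, the other cluster settings and leaving out cluster 9, with which 3 genes rather than 5 passed 1.5 times in cluster 5. Over all genes, the number higher in ML than in LP was 2292 and rose to 3612 at a minimum of 20 counts and 3757 at 1 count in each class, and numbers in the other comparisons rose alike as more genes were tested.

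No paired analysis was possible because each condition had 1 library. Depth limits the low genes: Sdf2l1 in basal cells rested on 68 counts, and Ern1, Atf6 and Eif2ak3 lay under the minimum of 100. With no replicate library, variation between mice or captures was not measured.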

Other observations

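The 26 cells that met both the basal and the ML rule had a median of 4609 counts, beside 1820 in basal and 3403 in ML cells, and a summed level of the 10 genes of 3681 CPM (3351 to 4034), between the 2755 of basal and the 4304 of ML cells. They carried 5336 CPM of basal and 5851 CPM of ML markers outside the rule. The 97 cells that met no rule summed to 2307 CPM (2077 to 2554) of the set and to 8489 CPM of fibroblast and 2525 CPM of pericyte markers.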
